A study of Drosophila melanogaster with 24 samples.

Results

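The comparison described here is between the replicate resistant lines, R1 and R2, which had been selected in parallel for resistance to alcohol. Its members are 8 of the 24 arrays of the series, 2 pools of males and 2 pools of females from each line, and they were chosen by the line that the sample labels give. Each pool was total RNA of whole bodies of 15 virgin flies, 3 to 5 days old, collected at generation 25. All lines were founded from a heterogeneous population built from wild-derived isofemale lines, and the parents of each generation of a resistant line were the flies that stayed longest in a column of ethanol vapor. The other 16 arrays hold the same number of pools of replicate sensitive lines (S1 and S2) and unselected control lines (C1 and C2). The labels of all 24 samples say that the flies met ethanol vapor before RNA was taken, which the account of the arrays in the study's methods does not mention. R1 and R2 are single lines, so founding, drift and selection cannot be told apart as sources of a difference between them, and the error in every test below is the spread between pools of a line.

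Ethanol enters flies through the respiratory and feeding routes and is broken down mainly by alcohol dehydrogenase and aldehyde dehydrogenase to acetate, which feeds lipid synthesis. Other foreign compounds are handled by cytochrome P450s, glutathione S-transferases and UDP-glycosyltransferases, large enzyme families known for wide variation among wild flies. The fat body of the fly is also the main source of antimicrobial peptides, which are released into the hemolymph under control of the Toll and Imd pathways. Replicate lines selected for one trait carry different samples of the alleles of their base population, and can part through chance sampling of alleles as well as through selection.

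Expression was given as the MAS5 Signal, a summary of the probe pairs of each probe set on a linear scale. Signal was raised to at least 1 and log2 transformed, and the probe sets tested were those with a Signal of at least 50.4 on 12 or more of the arrays. Values below that level lie close to background. The names *AttA*, *IM1*, *IM23*, *CG13422*, *CG1967*, *Adf1*, *Aldh* and *Rheb* were taken from the tables of the study, since the platform annotation pairs their probe sets with no gene. The correlation of log2 Signal between the pools of a group was 0.981 in R1 males, 0.984 in R2 males, 0.974 in R1 females and 0.969 in R2 females, over all tested probe sets. Between the pools, 205 to 271 probe sets of the males and 943 to 1287 of the females differed by more than 2-fold. Yolk and eggshell genes summed to 657 to 825 Signal units in the male arrays and to 93310 to 126876 in the female arrays, and accessory gland and testis genes summed to 272874 to 304948 in males and 351 to 673 in females, in the direction of the labeled sex.

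With the sexes averaged, 233 probe sets differed between R1 and R2 at an adjusted p-value below 0.001 in limma, which is 1.97% of those tested. Signal was higher in R1 for 142 of these (1.2%) and higher in R2 for 91 (0.769%). Without any one of the 8 resistant arrays 130 to 151 probe sets were called, and 93 with those 8 arrays alone. Without the females of S1, which share in the error, 312 were called. The called differences had a median size of 0.98 on the log2 scale against 0.17 over all tested probe sets. A choice by a test of this same difference favors large sizes. Of the called probe sets 115 differed by more than 2-fold and 38 by more than 4-fold, 24 of the latter higher in R1 and 14 higher in R2. The direction was the same in males and females for 232 of the 233, which the choice by the average of the sexes favors. For 227 of them the pools of R1 did not overlap those of R2 in either sex, which held for 19.3% of all tested probe sets (11.2% with R1 higher and 8.12% with R2 higher).

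**Figure D1:**
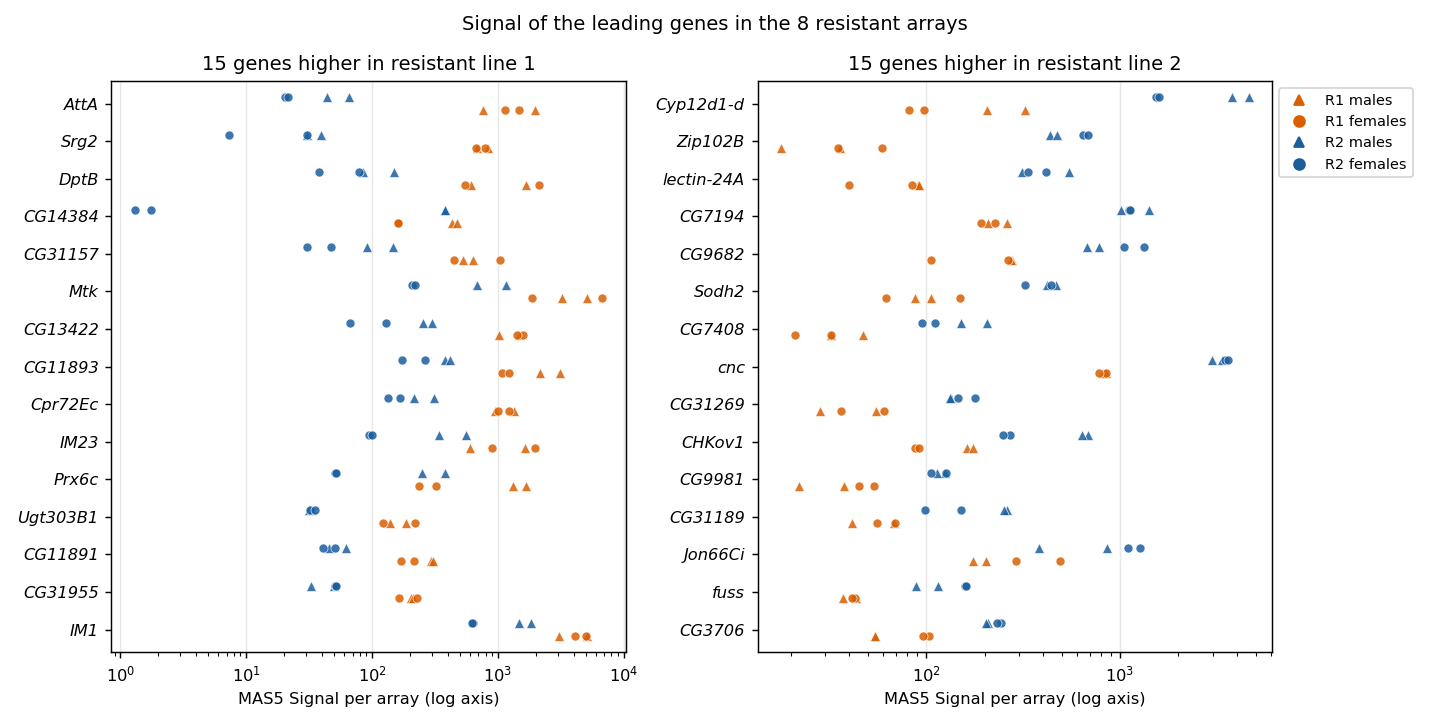
MAS5 Signal (log axis) of the 15 named genes with the largest differences in each direction, in each of the 8 resistant arrays, with R1 in orange, R2 in blue, males as triangles and females as circles. All 30 genes were chosen among those whose pools of the 2 lines are apart within each sex. For *CG14384* the gap is wide in females alone.

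Genes of the immune response were among the leading named genes that were higher in R1. *AttA* encodes the antibacterial peptide attacin. Its Signal was 759 and 1984 in R1 males and 1480 and 1146 in R1 females, against 65.9 and 43.6 in R2 males and 20.5 and 21.6 in R2 females. All 4 R1 pools were thus above all 4 R2 pools, and the difference was 5.23 ± 0.51 (SE) on the log2 scale, or 37.6-fold (adjusted p = 5.4e-06). In R2 3 of the 4 values lie under 50.4, close to background, so the size of the fold is not well fixed.

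*DptB*, which encodes another antibacterial peptide of the Imd pathway, had 608 and 1685 in R1 males and 551 and 2121 in R1 females. The values in R2 were 150 and 84.3 in males and 38.1 and 79.4 in females, a 13.3-fold difference (3.73 ± 0.61, adjusted p = 0.00077). Pools of the same line and sex of R1 differed several-fold in this gene, yet no R1 pool fell to the level of R2. *Mtk*, encoding the antifungal and antibacterial peptide metchnikowin, had 3241 and 5106 in R1 males, 1868 and 6794 in R1 females, 1170 and 688 in R2 males, and 209 and 222 in R2 females. Its difference was 3.11 ± 0.47 (adjusted p = 0.00041), again with no overlap. For the leading genes, pools apart within each sex were a condition of the choice. The calls of *DptB* and *Mtk* were lost when any 1 of 7 of the 8 resistant arrays was left out, at adjusted p-values of up to 0.0061 and 0.0033, with differences of at least 3.25 and 2.65.

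The bomanins are short secreted peptides that depend on Toll signaling. *BomBc3* had 7862 and 10062 in R1 males and 6195 and 5744 in R1 females, and 3737 and 2773 in R2 males and 805 and 1288 in R2 females. The 4.02-fold difference (2.01 ± 0.20, adjusted p = 7.3e-06) kept its call without each of the arrays in turn. The bomanin genes *IM1* and *IM23* were 4.17-fold and 5.59-fold higher in R1 (adjusted p = 1.6e-05 and 0.0002), and the call of *IM23* was lost without 5 of the 8 resistant arrays (adjusted p up to 0.0018). *CG13422* encodes a protein related to the Gram-negative bacteria-binding proteins, and was 8.49-fold higher in R1 (3.09 ± 0.21, adjusted p = 1.1e-07). *PGRP-SB1*, a secreted peptidoglycan recognition protein, was 3.14-fold higher (1.65 ± 0.26, adjusted p = 0.0007), but its call was lost without any one of the 8 arrays.

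The list of antimicrobial and immune-induced peptides took only probe sets that the platform annotation pairs with 1 gene. It thus leaves out *AttA*, *IM1* and *IM23*. Across this list 18 genes were tested. Of these 4 passed the test, *BomBc3*, *Mtk*, *DptB* and the drosomycin-like gene *Drsl5*. All 4 were higher in R1, where 1.86% of all named genes were called in either direction and 1.15% with R1 higher. The call of *Drsl5* was lost without any one of the 8 resistant arrays (adjusted p of 0.0020 to 0.0040), so that *BomBc3* alone of the 4 kept its call without each of them. The estimate was positive for all 18 genes, and the median difference was 0.92 against 0.02 over all tested probe sets. At an adjusted p below 0.05, 12 of the 18 were higher in R1 and none in R2, where 10.4% of all genes passed in either direction. Among those between the thresholds, *edin* differed by 3.91 ± 0.79 (adjusted p = 0.0041), *Def* by 2.17 ± 0.61 (adjusted p = 0.031) and *BomS2* by 1.22 ± 0.21 (adjusted p = 0.0015). *Drs*, which encodes the antifungal peptide drosomycin, had 4174 and 5731 in R1 males and 14105 and 12492 in R1 females, against 4300 and 2216 in R2 males and 10744 and 12356 in R2 females (0.43 ± 0.38, adjusted p = 0.58). The pools of the lines overlapped in males for this gene.

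**Figure D2:**
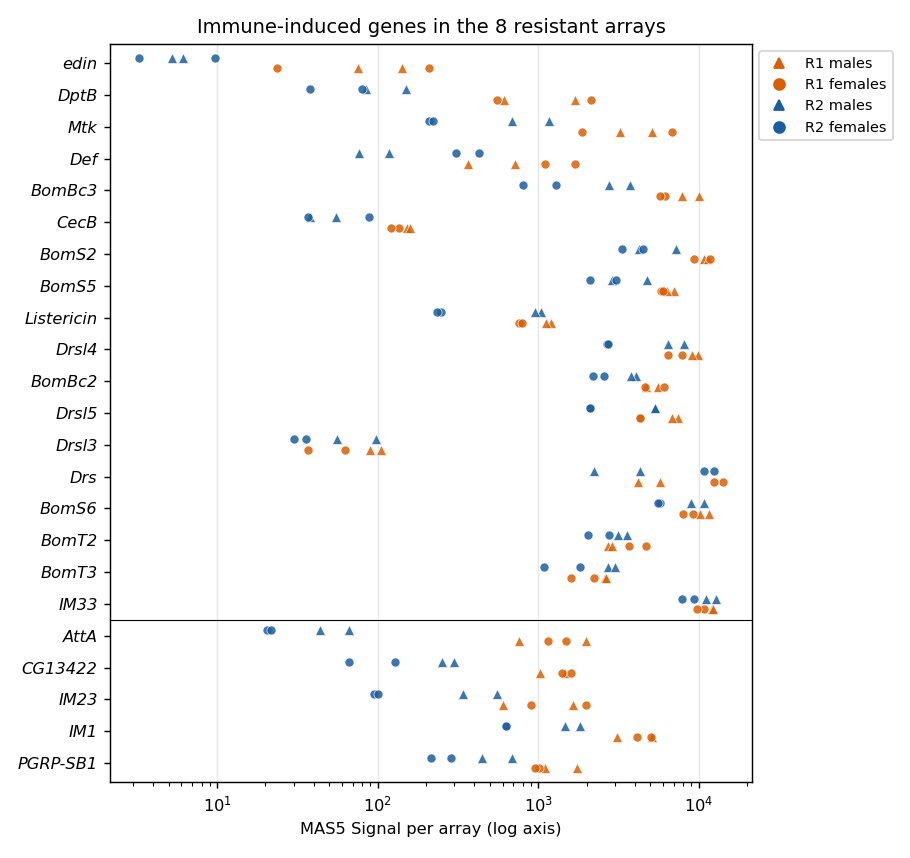
MAS5 Signal (log axis) of the 18 listed antimicrobial and immune-induced peptide genes (above the line) and of 5 further immune genes (below it) in each of the 8 resistant arrays, ordered by the difference between R1 and R2. Orange points (R1) lie far to the right of blue points (R2) for *edin* and *DptB*, while for *BomT2* and *BomT3* the R1 males lie to the left of the R2 males.

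The estimate for the immune peptides was positive for 16 of 18 genes in males and 18 of 18 in females, with a median of 0.54 in males and 1.20 in females, and it was larger in females for 14 of the 18 genes. Summed over the list, Signal was 86446 to 91819 in R1 males and 83744 to 87481 in R1 females, against 55769 to 70035 in R2 males and 41533 to 49257 in R2 females. In whole flies, less RNA per cell and fewer cells of a type cannot be told apart. The peptidoglycan recognition proteins and lysozymes gave 1 call in each direction among 8 genes, the second being the lysozyme gene *LysP*, with 434 and 430 in R1 males and 870 and 741 in R1 females against 1278, 875, 1228 and 1154 in R2 (-0.93 ± 0.13, adjusted p = 0.00017), a call lost without 5 of the arrays. *Rel*, which encodes the NF-kB factor of the Imd pathway and was chosen after its values were seen, was 1.46-fold higher in R1 (0.54 ± 0.06, adjusted p = 3.4e-05), with 1776 to 1930 in the R1 pools and 1132 to 1377 in the R2 pools.

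Outside the immune genes, *Srg2* had the largest difference with R1 higher among probe sets with a gene name. Its Signal was 828 and 689 in R1 males and 789 and 668 in R1 females, but 30.5, 39.6, 7.33 and 30.5 in the R2 pools, all below the level of the lowest tested probe sets. The fitted difference was 5.02 ± 0.32 (adjusted p = 6.5e-08). *CG14384* came next at 3.50, the mean of 0.26 in males and 6.74 in females. *CG31157* had 641 and 530 in R1 males, 452 and 1046 in R1 females, 90.5 and 146 in R2 males and 30.4 and 47.3 in R2 females (3.26 ± 0.30, adjusted p = 2.8e-06). *CG31955*, *CG11891* and the cuticle protein gene *Cpr72Ec* were 4.42-fold, 4.88-fold and 5.68-fold higher in R1. In R2 *CG11891* had 40.9 to 61.8 and *CG31955* a geometric mean of 45.3, both close to background. *Prx6c*, which encodes a peroxiredoxin, had 1318 and 1680 in R1 males and 238 and 322 in R1 females against 382, 252, 50.5 and 52.1 in R2 (2.35 ± 0.25, adjusted p = 1.3e-05). It was the single call among 14 antioxidant genes, whose median difference was 0.02.

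*MtnC*, a metallothionein that binds heavy metals, had 12644 and 11954 in R1 males and 8700 and 7607 in R1 females, above 7207, 5955, 2920 and 2286 in the R2 pools (1.28 ± 0.15, adjusted p = 3.7e-05). *MtnB* differed by 1.06 ± 0.20 (adjusted p = 0.0024) and missed the threshold. *MtnA*, another of the 4 metallothioneins tested, had 17406 to 26515 in the R1 pools and 15501 to 22376 in the R2 pools, which overlapped across the sexes (0.15 ± 0.10, adjusted p = 0.42). The largest difference of all belonged to a probe set paired with no gene, with 1081, 2403, 1785 and 2911 in the R1 pools and 44.9, 5.93, 3.44 and 5.96 in the R2 pools (7.80 ± 0.83). The low values are near background, so the size of that difference is not well fixed.

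The gene with the largest difference in the other direction was *Cyp12d1-d*, a mitochondrial cytochrome P450 known to be induced by many foreign compounds. Its Signal was 3797 and 4605 in R2 males and 1529 and 1580 in R2 females, against 323 and 206 in R1 males and 81.5 and 97.4 in R1 females. R2 was 16.8-fold higher (-4.07 ± 0.16, adjusted p = 1.5e-10), by -4.02 in males and -4.13 in females. The genome holds a nearly identical copy, *Cyp12d1-p*, which this probe set may also measure.

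*Zip102B*, which encodes a zinc transporter of the ZIP family, had 433 and 475 in R2 males and 642 and 682 in R2 females, and 17.8, 35.9, 59.1 and 35.1 in the R1 pools (-4.01 ± 0.19, adjusted p = 2.3e-09). Most of its R1 values lie under 50.4, close to background, so the size of that difference is not well fixed. *cnc*, the fly ortholog of the Nrf2 transcription factor, which drives genes of detoxification and oxidative defence, was 4.09-fold higher in R2 (-2.03 ± 0.14, adjusted p = 1.6e-07). Its values were tight, from 2996 to 3612 in the R2 pools and from 781 to 847 in the R1 pools. *CHKov1*, of the ecdysteroid kinase-like family, had 685 and 638 in R2 males and 271 and 250 in R2 females, and 162, 174, 87.3 and 91.6 in R1 (-1.76 ± 0.11, adjusted p = 4.7e-08). Both of its probe sets were called, the second at -0.61.

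The C-type lectin gene *lectin-24A* was 5.36-fold higher in R2 (-2.42 ± 0.27, adjusted p = 1.7e-05), and *fuss*, a transcriptional regulator of the Ski and Sno family, was 3.07-fold higher (-1.62 ± 0.21, adjusted p = 7.7e-05), its R1 values of 37.4 to 43.5 being close to background. *CG7194* had 1009, 1407, 1117 and 1132 in R2 and 262, 208, 225 and 191 in R1 (-2.39 ± 0.22, adjusted p = 4e-06). For *CG9682*, *CG7408*, *CG31269*, *CG9981*, *CG31189* and *CG3706* the difference ran from -2.11 to -1.59. The calls of *CG7408*, *CG31269* and *CG31189* were each lost without 6 of the 8 resistant arrays, and that of *CG9981* without 7. The geometric means of *CG7408*, *CG31269* and *CG9981* in R1 were 31.8, 42.9 and 37.5, close to background. *TotC*, a Turandot stress gene, missed the threshold at -3.66 ± 0.65 (adjusted p = 0.0016), with 642 and 4769 in R2 males and 393 and 1254 in R2 females against 60.3 to 145 in the R1 pools. The pools of R2 differed from each other several-fold in this gene.

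The enzyme families of detoxification parted in both directions. Among 70 cytochrome P450 genes 5 were higher in R1 and 3 in R2, or 11.4% against 1.86% of all genes (1.15% with R1 and 0.712% with R2 higher), with a median difference of 0.24. *Cyp6a2*, known for high expression in insecticide-resistant strains, had 1344 and 1416 in R1 males and 649 and 832 in R1 females, and 597, 655, 207 and 184 in R2 (1.53 ± 0.12, adjusted p = 5.8e-07). *Cyp12a5*, another mitochondrial P450, was 2.28-fold higher in R1 (adjusted p = 9e-06). *Cyp6a14*, *Cyp6a23* and *Cyp4d8* were called in the same direction, at 0.71 to 1.03. *Cyp4e3* was 2.51-fold higher in R2, with 355 to 496 in the R2 pools and 148 to 215 in the R1 pools (-1.33 ± 0.18, adjusted p = 0.00013, lost without 4 of the 8 resistant arrays), and *Cyp28d1* was also called, at -1.19.

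Of 33 glutathione S-transferases 3 were called (9.09%, against 1.86% of all genes). *GstD8* was higher in R1 (1.54 ± 0.25, adjusted p = 0.00077) and *GstD5* (-2.18 ± 0.31, adjusted p = 0.0002) and *GstE10* (-0.70 ± 0.11, adjusted p = 0.00057) were higher in R2. The geometric mean of *GstD8* in R2, 48.3, was close to background. *GstD5* had 354 and 413 in R2 males, 63.8 and 98.1 in R2 females, 55.9 and 92.8 in R1 males, and 24.6 and 16.9 in R1 females, so that its female levels were near background. These 3 calls were each lost without 5 to 7 of the resistant arrays. Of 25 UDP-glycosyltransferases 3 were called (12%, against 1.86%). *Ugt303B1*, *Ugt49C1* and *Ugt49B1* were 4.92-fold, 2.86-fold and 2.32-fold higher in R1 and none was called higher in R2. At an adjusted p below 0.05 in limma, 6 were higher in R1 and 4 in R2. The call of *Ugt303B1*, whose R2 values of 31.5 to 35.2 are close to background, was lost without 3 of the resistant arrays. *Ugt49B1* and *Ugt49C1* are neighbors, and *Ugt49B1* had 998 to 1307 in the R1 pools against 364 to 612 in the R2 pools.

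Among 12 genes that act on alcohol, aldehydes and acetate there was 1 call in each direction, or 16.7% against 1.86% of all genes, and the median difference was -0.05. *Sodh2*, a sorbitol dehydrogenase, had 469 and 418 in R2 males and 438 and 324 in R2 females, and 106, 87.8, 62.1 and 150 in R1 (-2.08 ± 0.22, adjusted p = 1.1e-05). *Men*, which encodes malic enzyme, had 5953 and 6493 in R1 males and 3653 and 3790 in R1 females, and 4799, 4991, 2319 and 2546 in R2. This difference of 0.48 ± 0.07 (adjusted p = 0.00042) was lost without any one of the 8 arrays. *Men* was also the only gene to pass among 33 candidates that had been picked for mutant tests. That list had been chosen on these same samples.

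*Adh*, the gene of alcohol dehydrogenase, was read by a probe set that the annotation also pairs with its neighbor *Adhr* and that the study's tables name *Adh*. It had 16448 to 24591 in the R1 pools and 14092 to 19775 in the R2 pools, for a difference of 0.18 ± 0.13 (adjusted p = 0.46), and the pools overlapped across the sexes. *Aldh* differed by 0.40 ± 0.09 (adjusted p = 0.0087). Of 34 genes that earlier work had tied to alcohol, *Adf1*, a transcription factor first known from the *Adh* promoter, passed the test. It had 1878 and 2922 in R1 males, 2888 and 2759 in R1 females, 1047 and 1021 in R2 males and 2263 and 2054 in R2 females (0.78 ± 0.11, adjusted p = 0.00018), and its call was lost without 5 of the arrays. The median of that list was 0.18.

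Among 34 genes that make, store or oxidize fatty acids, *Acox57D-p*, a peroxisomal acyl-CoA oxidase that begins the beta-oxidation of long fatty acids, was called. It had 753 and 818 in R2 males and 1376 and 1390 in R2 females, against 309, 368, 599 and 549 in R1 (-1.24 ± 0.08, adjusted p = 6.5e-08). Its paralog *Acox57D-d* differed by -0.11. Of 31 digestive serine proteases, *thetaTry* and *Jon66Ci* were higher in R2 (-1.04 ± 0.12 and -1.62 ± 0.22, adjusted p = 4e-05 and 0.00013), whereas the median of the list was 0.17. *Jon66Ci* had 174, 202, 292 and 491 in the R1 pools and 854, 381, 1104 and 1267 in the R2 pools, and its call was lost without 3 of the arrays.

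Clock genes gave 3 calls among 11, or 27.3% against 1.86% of all genes, and 1 of the 3, *Clk*, was lost without any one of the 8 arrays. *Clk*, an activator of the circadian feedback loop, was 1.95-fold higher in R2, with 1310 and 1415 in R2 males, 316 and 416 in R2 females, 609 and 761 in R1 males, and 178 and 205 in R1 females (-0.96 ± 0.15, adjusted p = 0.00061). *tim*, which the loop activates and whose product represses it, was 1.65-fold higher in R1 (0.72 ± 0.07, adjusted p = 9.3e-06). *cwo*, which represses the targets of the activator, had 2162 and 2092 in R1 males and 2315 and 2499 in R1 females, and 808, 847, 1465 and 1473 in R2 (1.04 ± 0.10, adjusted p = 4.5e-06). A second probe set of *tim* differed by 0.81 and one of *cwo* by 0.33, neither called. *per*, the partner of *tim*, differed by 0.31 ± 0.23 (adjusted p = 0.50), and the neuropeptide gene *Pdf* by 1.31 ± 0.27 (adjusted p = 0.0049). The hour at which each pool was collected is not given in the sources used here.

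The remaining lists held few calls or none. *yellow-b* was the only call among 20 genes of biogenic amines and pigmentation (1.04 ± 0.16, adjusted p = 0.00042), a call lost without any one of the 8 resistant arrays, and *Cpr72Ec* the only one among 29 cuticular protein genes. No gene was called among 34 cytoplasmic ribosomal proteins, 31 odorant-binding proteins, 26 genes of glycolysis, gluconeogenesis and sugar transport, 16 heat-shock proteins, 11 genes of juvenile hormone, 35 male reproductive genes of accessory gland and testis, 23 genes of muscle and 18 of photoreceptors. At an adjusted p below 0.05 the counts in these lists, in the same order, were 0, 8, 3, 2, 1, 1, 2 and 2. *Yp1* was the only call among 19 yolk and eggshell genes, and it came from the male arrays, where Signal was 2.97 and 3.02 in R1 and 25.6 and 27.3 in R2. In females it was 17896 to 18998 in R1 and 16987 to 21094 in R2. All 4 male values are below the lowest tested level, and the call was lost when Signal was raised to at least 16.

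Within each sex alone fewer probe sets passed. In males 67 differed between the lines (0.566%), 39 higher in R1 and 28 in R2. In females 108 differed (0.912%), 69 higher in R1 and 39 in R2. With one of the 8 resistant arrays left out the counts were 21 to 58 in males and 49 to 104 in females. Of these calls, 30 were called in both sexes, and all 30 had one direction. Across all tested probe sets the correlation of the male with the female difference was 0.314, as a description over probe sets whose errors in each sex come from separate pools.

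**Figure D3:**
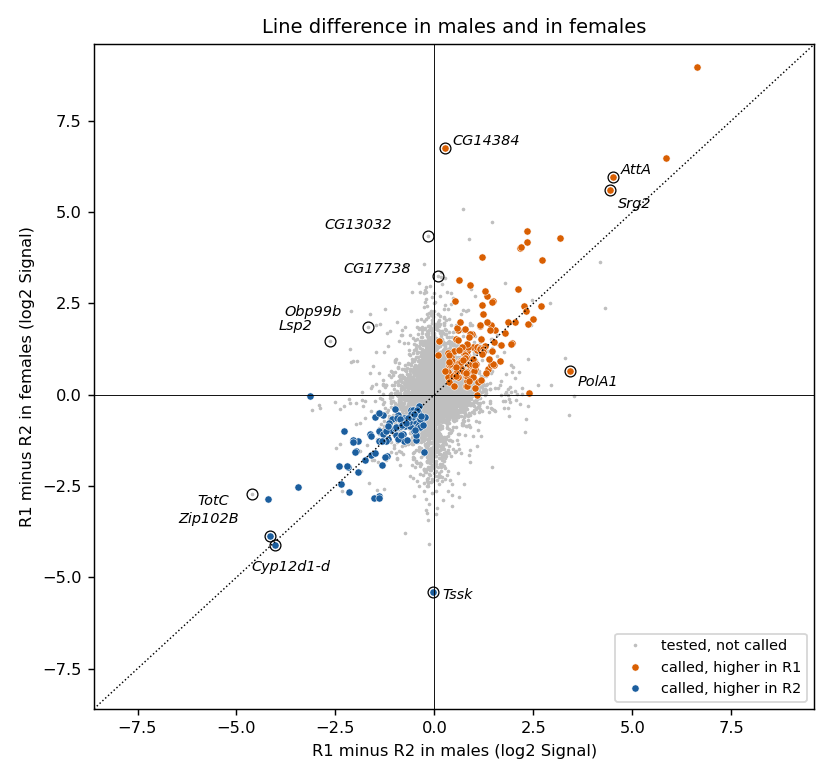
Difference between R1 and R2 in log2 Signal in males (horizontal axis) and in females (vertical axis) for all tested probe sets. Probe sets called with the sexes averaged are orange where R1 was higher and blue where R2 was higher, and the dotted line marks equal differences. *CG14384* and *Tssk* lie far from it on the female axis and *PolA1* on the male axis.

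The difference between the lines depended on sex for 106 probe sets (0.895%) at an adjusted p below 0.05. The estimate was more positive in males for 50 of these and more positive in females for 56. It had opposite signs in the sexes for 88, which the choice by the difference between the sexes favors. Without one of the resistant arrays 44 to 90 were called. The 6 largest were in *CG14384*, *Tssk*, *CG13032*, *Lsp2*, *Obp99b* and *CG17738*. *CG14384* was alike in males, with 435 and 474 in R1 and 380 and 379 in R2, but in females it had 162 and 160 in R1 and 1.3 and 1.74 in R2. *Tssk*, named for a testis-specific serine/threonine kinase, was the reverse. Male Signal was 1645 and 1907 in R1 and 1837 and 1814 in R2, and female Signal was 2.38 and 1.49 in R1 and 66.4 and 95.4 in R2.

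*CG13032* and *CG17738* repeated the first pattern at 69.3 and 125 against 4 and 5.29, and at 27.8 and 12.1 against 1.54 and 2.44, in the females of R1 and R2. These 3 genes and *Tssk* all had at least 255 in the males. The accessory gland gene *Acp63F* was at 0.59 to 1.78 in all 4 female arrays and at 9030 to 11682 in the males, and the sperm gene *dj* was at 0.63 to 1.99 in the females and at 542 to 1114 in the males. The female values of *CG17738* in both lines, and those of the lower line for the other 3, were below the lowest tested level.

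*Lsp2*, a storage protein of the fat body, parted in opposite directions. It had 9098 and 10010 in R2 males against 1767 and 1320 in R1 males, and 804 and 395 in R2 females against 2040 and 1207 in R1 females. *Obp99b*, an odorant-binding protein, had 4915 and 4355 in R2 males, 1606 and 1302 in R1 males, 273 and 141 in R2 females and 757 and 670 in R1 females. The flight muscle genes *fln*, *TpnC4* and *Act88F* had estimates of the same signs in the same arrays. *fln* had 4894 and 6767 in R2 males, 2316 and 760 in R1 males, 1120 and 602 in R2 females and 2996 and 5356 in R1 females. The difference in males and in females was -2.12 and 2.29 for *fln*, -1.64 and 2.20 for *TpnC4*, and -1.17 and 1.32 for *Act88F*, and none of the 3 passed the test of the difference between the sexes (adjusted p = 0.23, 0.30 and 0.36). Summed over 23 muscle genes, Signal was 178371 to 186371 in R2 males, above 159881 to 169871 in R1 males. In females the sums overlapped, at 111823 to 135353 in R2 and 117768 to 127450 in R1. The median difference over these 23 genes was -0.10 in males and -0.07 in females, unlike the positive female estimates of *fln*, *TpnC4* and *Act88F*. The part of muscle RNA in these results was not tested.

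**Figure D4:**
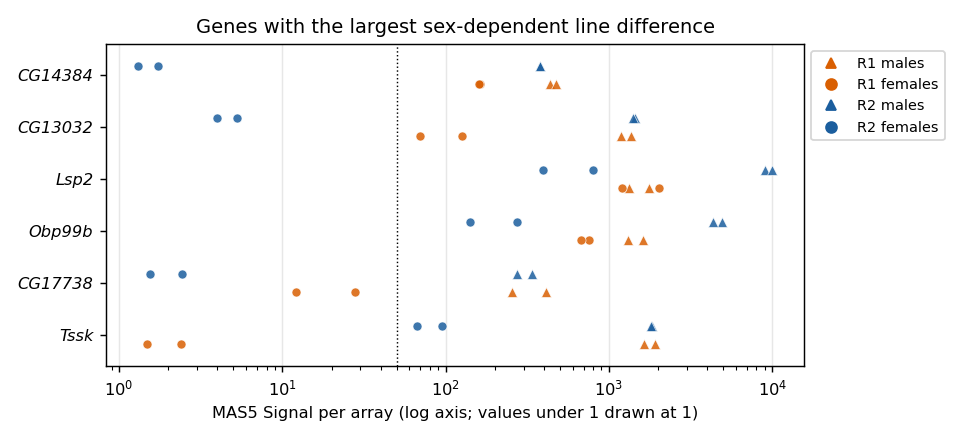
MAS5 Signal (log axis, values under 1 drawn at 1) of the 6 genes whose difference between R1 and R2 depended most on sex, in each of the 8 resistant arrays. The dotted line marks the lowest tested level of 50.4, and for *CG14384*, *CG13032*, *CG17738* and *Tssk* at least 2 female arrays lie to its left.

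The sign counts of 2 lists are given by sex, with no test of the difference between the sexes. The estimate was positive in females for 54 of 70 cytochrome P450s and 27 of 31 odorant-binding proteins, where 47.0% of all tested probe sets were positive, and in males for 37 and 15, where 56.8% of all were. The summed Signal of the odorant-binding proteins was 42572 to 46597 in R1 females and 29818 to 30407 in R2 females, and 92743 to 100047 in the 4 male arrays. *PolA1*, the catalytic subunit of DNA polymerase alpha, was chosen after its values were seen. It differed in males (328 and 516 in R1, 50.5 and 29.1 in R2) and less in females (869 and 1090 in R1, 628 and 615 in R2), and the test of the difference between the sexes passed at 2.78 (adjusted p = 0.0085). The R2 male values of *PolA1* are close to background.

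The other pairs of replicate lines give a measure of how far lines may part. C1 and C2 differed at 229 probe sets (1.93%) and S1 and S2 at 815 (6.88%) by the same test, or at 115 to 168 and at 473 to 1050 without one of their arrays. The count of 1050 came without replicate 1 of the S1 females. The pools of that group differed by a median of 0.38 on the log2 scale, against 0.13 to 0.22 in the other groups, which limits the sensitive count. Over all tested probe sets the median size of the difference was 0.17 between R1 and R2, 0.17 between C1 and C2 and 0.25 between S1 and S2. Of the 233 probe sets called between the resistant lines, 39 were also called between the control lines, 22 of them in the same direction of line 1 over line 2. They were 16.7% of the resistant and 17% of the control calls. With the sensitive lines 73 were shared, 31.3% of the resistant and 8.96% of the sensitive calls, and 31 had the same direction. The test of the difference itself passed for 108 of the 233 against the control contrast, for 127 against the sensitive contrast and for 74 against both. Among all probe sets these tests called 2.2% and 4.55%. The difference between R1 and R2 is part of both tests, so the choice of the 233 by that difference favors these counts.

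The immune peptides illustrate the contrast. Between S1 and S2 their median difference was -1.38, that is, higher in S2, and between C1 and C2 it was 0.06. Of the 18 genes 10 were called between S1 and S2 and 2 between C1 and C2, against 4 between R1 and R2. The estimate was negative for 16 of the 18 in the sensitive pair and for 8 in the control pair. The resistant contrast differed from the sensitive contrast for 11 genes and from the control contrast for 4. The calls against the sensitive contrast thus also take in the difference between S1 and S2. *Mtk* averaged 10416 in S2 and 1264 in S1, and *DptB* averaged 2553 in S2, 3834 in C2, 177 in S1 and 326 in C1. R1 was thus within the range of the other lines for both genes and R2 below all of them. *AttA* averaged 982 in C2 and 5.59 in S2.

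**Figure D5:**
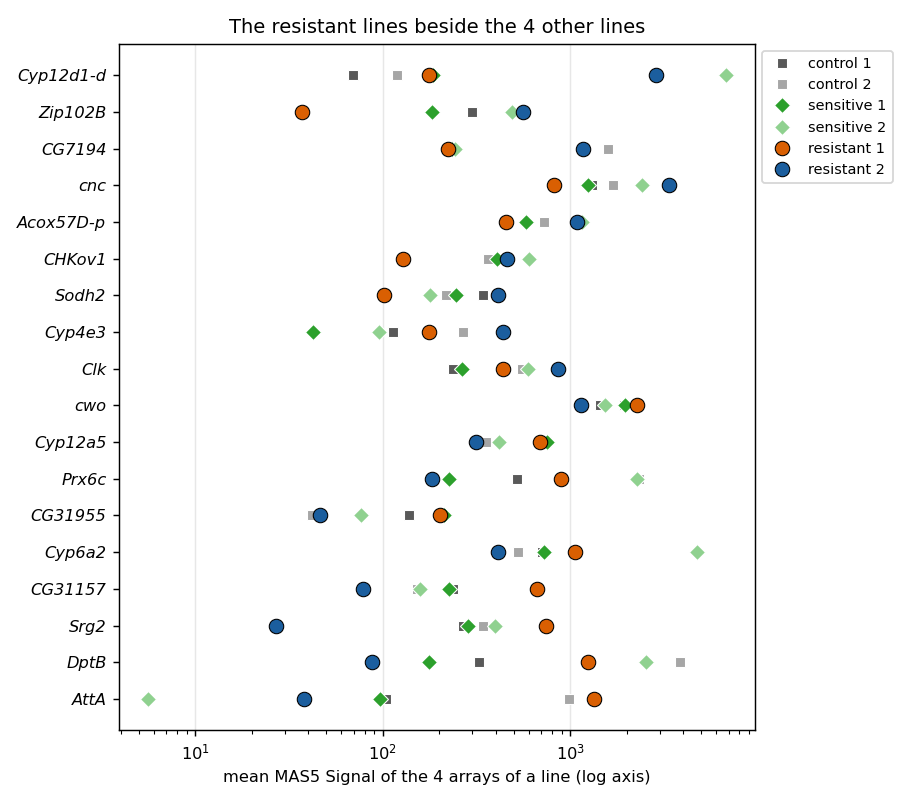
Mean MAS5 Signal (log axis) of the 4 arrays of each of the 6 lines for 18 named genes, with R1 in orange, R2 in blue, control lines as gray squares and sensitive lines as green diamonds. For *Srg2*, *CG31157*, *cnc*, *Sodh2* and *Zip102B* the other 4 lines lie between R1 and R2, and for *Cyp12d1-d* S2 lies beyond R2.

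For 190 of the 233 probe sets the mean of the 4 other lines lay between R1 and R2. The choice of probe sets with a wide gap favors this, and it was not counted over all tested probe sets. R1 alone was outside the range of the other lines for 53, R2 alone for 67, both for 92 and neither for 21, where the shares over all tested probe sets were 16.4%, 20.0%, 21% and 42.6%. A wide gap between R1 and R2 favors a resistant line outside that range, so the choice of the 233 bears on these counts too. *Srg2* was 268 to 396 in the means of the other lines, below R1 and above R2. *Cyp12d1-d* averaged 6780 in S2, above R2, and 69.6 to 186 in C1, C2 and S1, close to R1. *CG7194* averaged 1582 in C2 and 235 to 243 in C1, S1 and S2, so that 2 of the 6 lines were high. *MtnC* averaged 2471 to 4771 in the other lines, a range that R1 exceeded.

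In all 3 pairs of lines 5 probe sets were called in the same direction. These were *Cyp4e3* (-1.33 in the resistant, -1.26 in the control and -1.10 in the sensitive pair), *Clk* (-0.96, -1.46 and -1.32), *Cyp12a5* (1.19, 1.13 and 0.83), *CG31955* (2.14, 1.73 and 1.49) and *CG1967* (1.65, 0.98 and 1.29). Lines that share a number descend from one replicate of the base population, and the part of this in the 5 was not tested. Over all tested probe sets the resistant difference correlated at -0.058 with the control difference and at -0.085 with the sensitive difference. The control and sensitive differences correlated at 0.058. For none of the 5 did a test of the difference from the control or the sensitive pair pass, with adjusted p-values of 0.0079 or more. The choice of probe sets called in one direction in all 3 pairs favors this.

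Called genes were spread over the genome. With 1 probe set for each gene, 1.41% of the tested genes were called on the X chromosome, 1.13% on 2L, 1.88% on 2R, 1.81% on 3L and 2.73% on 3R (66 of 2416), and 2 of 59 on chromosome 4, *Zip102B* and *fuss*. Adjacent tested genes were called in the same direction in 7 runs, each of 2 genes, which took in 14 of 183 called genes. Of the runs 6 were higher in R1, among them *Ugt49B1* with *Ugt49C1*, *CG13658* with *CG11893* and *CG11891* with *CG11878*. The seventh, *Tssk* with *CG7695*, was higher in R2.

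Where a called gene had more than 1 tested probe set, the others did not always follow. Of 20 such genes, 2 had another probe set called in the same direction, 12 had all probe sets of one sign and none had one called in the opposite direction. For *CG3301* 2 probe sets were lower in R1 (-1.68 ± 0.21 and -1.43 ± 0.20) while the third was 0.89 ± 0.17 (adjusted p = 0.0023). For *shi*, which encodes dynamin, 1 probe set differed by -0.80 ± 0.13 (adjusted p = 0.00084) and the others by -0.01 and 0.01. Both were picked with their values in view. A probe set reads only its own stretch of a transcript, and the part of sequence differences under the probes, or of single transcript forms, was not tested.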

How the data were processed

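The authors hybridized biotinylated cRNA of 24 pools to Affymetrix Drosophila Genome 2.0 arrays and deposited 1 intensity per probe set and array, the MAS5 Signal, on a linear scale that they had scaled to a target of 500. Its trimmed mean was 500.0 on every array. The table holds 18952 probe sets, of which 183 array controls were left out, and 11838 of the other 18769, as many as the study kept, were tested, being those in which 12 of the 24 arrays reached the highest Signal. Detection calls and scan dates were not used here. The platform annotation gave 1 gene symbol for 13647 of the non-control probe sets, more than 1 for 402 and no symbol for 4720. RefSeq (Release 6) held 13544 of the first, and 137 tested probe sets with none took a name from the study's tables.

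Signal was floored at 1 (137 of 94704 values of the resistant arrays) and log2 transformed. limma 3.58.1 in R 4.3.3 (lmFit, eBayes with trend on mean intensity, prior degrees of freedom of 4.02 at the median) fitted 12 means of line and sex over 24 arrays with 12 residual degrees of freedom. Contrasts of R1 with R2 and of the other line pairs were called at a Benjamini-Hochberg adjusted p under 0.001 over all tested probe sets, and the difference between the sexes at 0.05. On simulated data of 11838 probe sets for the comparison of R1 with R2, 109 of 200 changes of log2 1 and 34 of 200 of log2 0.5 were called, with 1 call among the unchanged. No test was made of a gene list, which is described by its counts and median. Where a gene had several probe sets, the list used the one with the highest mean.

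Genes named are the 15 largest differences each way among called probe sets with 1 gene name, pools apart in both sexes and a Signal of 100 in the higher line in each sex, up to 4 called members of each list, the 6 largest differences between the sexes, and called genes of the study's candidate and earlier alcohol lists. Others are list members or are said to be chosen after their values were seen. The members and lists were chosen with earlier results of these data known. The alternatives were a pseudocount of 50, a floor of 16, all non-control probe sets, a filter on the resistant arrays, quantile normalization, no trend, the methods' analysis of variance, the study's rule in steps, a threshold of 0.05, the 8 resistant arrays alone, the fit without the females of S1, a replicate block, and each resistant array left out.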

Additional observations from a re-analysis of the deposited data

Results flagged for a closer look

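The results below had a line difference that differed between groups, by a test of that difference. Between males and females, 106 probe sets did so. The difference in males minus that in females was -6.49 for *CG14384*, -4.51 for *CG13032*, -4.12 for *Lsp2*, -3.54 for *Obp99b* and -3.15 for *CG17738*, and 5.36 for *Tssk* (limma adjusted p = 0.00024, 0.018, 0.0026, 0.023, 0.023 and 7.7e-05). For *CG14384*, *CG13032*, *CG17738* and *Tssk* the male pools of the lines differed by 0.26 or less on average, and the female values of at least 1 line were near background.

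Between selection groups, 261 probe sets had a line 1 minus line 2 difference in the resistant lines that differed from that in the control lines, and 539 had one that differed from that in the sensitive lines. Differences between pairs of single lines cannot be assigned to the selection that those lines had met.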

How the results depend on the processing

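The 233 calls rest on an error shared by 24 arrays. With the 8 resistant arrays alone the counts were 93 with the sexes averaged, 24 in males, 65 in females and 252 for the difference between the sexes. An adjusted p of 0.05 gave 1204, 580 and 841 for the first 3 of these, 1169 and 2928 for the control and sensitive pairs, and 1125 and 2186 for the resistant contrast less each of them. The rule in steps from the methods, in which a line or interaction effect is followed by an unadjusted contrast, gave 862, 649, 733, 320 (sex difference), 855 (control), 852 and 1091 (resistant less control and less sensitive). The analysis of variance on linear Signal gave 131 in males and 313 for the sex difference, and with the sexes averaged it called 90 higher in R1 and 91 higher in R2, against 142 and 91. Without an intensity trend the counts were 35 in males and 65 for the sex difference. With 50 added to Signal 304 were called with the sexes averaged and 112 in males, and a floor of 16 gave 265 with the sexes averaged. Without the females of S1, whose pools differed most, 312 were called with the sexes averaged and 315 for the control pair. The counts were then 107 in males, 198 in females and 384 for the sex difference.

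Leaving out in turn each array of the lines compared gave 130 to 151 calls between R1 and R2, 21 to 58 in males, 49 to 104 in females, 44 to 90 for the sex difference, 115 to 168 for the control pair, 473 to 1050 for the sensitive pair, and 169 to 197 and 385 to 453 for the resistant contrast less each of them. A lone pool was then assumed to vary like the other groups. Of 53 named calls, 33 kept their call without each resistant array and 20 lost it without at least 1, with 12 to 18 lost for any 1 array and no direction turned. With the 8 resistant arrays alone 27 of the 53 were lost, *Sodh2*, *tim*, *thetaTry* and *lectin-24A* among them, and on linear Signal 24, with *AttA*, *CG13422*, *IM1*, *Prx6c* and *Cyp6a2* among them. No intensity trend lost 7, the replicate block 4, quantile normalization 3, all non-control probe sets and the rule in steps 2 each, and a pseudocount of 50 and a floor of 16 each lost 1. In every alternative 15 of the 53 kept their call.

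Pool numbers do not pair the samples, since deviations of R1 and R2 pools with the same number correlated at 0.081 in males and -0.068 in females. With the replicate block the calls were 210, 57 in males, 95 in females, 95 for the sex difference, 209 and 770 for the control and sensitive pairs, and 240 and 511 for the contrasts less each of them. Among named genes that were not called with the sexes averaged, *Obp99b* turned from 0.091 to -0.013 with 50 added to Signal and ranged from -0.15 to 0.33 with 1 array left out. On linear Signal *Obp99b* was -1337, *CG13032* -31.6 and the sex difference of *CG17738* 11.04 Signal units. The causes were not tested. Signals near 50.4 or below have folds that depend on the floor.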

Other observations

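Genes of the ecdysteroid kinase-like family, related to enzymes that add phosphate to steroid hormones and known for clusters of neighboring copies, recurred among the calls. The family was listed after the values had been seen, so the counts are a description. Of 40 members tested, 6 were higher in R1 and 3 in R2, or 22.5% against 1.86% of all genes, with a median difference of 0.27. *CG11893* had 3099 and 2171 in R1 males and 1087 and 1231 in R1 females against 384, 415, 173 and 265 in the R2 pools, and *CG31288* had 2473, 2335, 1036 and 1094 against 879, 885, 358 and 600. *CG11891*, *CG13658*, *CG9498* and *CG11878* were also higher in R1, at 2.29, 1.19, 0.85 and 0.74. *CHKov1*, *CG16898* and *CG9259* were higher in R2, at -0.61 (the *CHKov1* probe set with the higher mean), -0.96 and -0.73. *CG11892*, close to *CG11891* and *CG11893*, was at -0.47 ± 0.09 (limma adjusted p = 0.0037) and did not pass.

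A few genes among the other calls were likewise chosen after their values were seen. *Nmda1* had 2555 to 3644 in the R1 pools and 989 to 1729 in the R2 pools (1.14 ± 0.09, adjusted p = 3e-07). *Ace*, which encodes acetylcholinesterase, was 2.02-fold higher in R1 (adjusted p = 0.00014). *Mal-B1*, a maltase gene, was 3.16-fold higher in R1, with 937 to 1495 against 228 to 640. *Rheb*, an activator of the TOR kinase, differed by 0.40 ± 0.06 with 1500 to 2065 in the R1 pools against 1219 to 1475 in the R2 pools. The long noncoding RNA *lncRNA:CR33218* was higher in R2, at 892 and 827 in males against 50.7 and 121 in R1 males, and below the lowest tested level in all 4 female pools.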
